A study of Mus musculus with 194 samples.

Results

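The cytoplasmic ribosomal protein genes were examined as a family in a calling card study of the mouse brain. Members were the protein-coding genes of the GRCm38 build whose symbol is Rpl or Rps followed by a number, without the Rps6k kinases, the Gm gene models and the mitochondrial Mrp genes. The rule gave 87 of the 21631 such genes on the autosomes and the X chromosome. Of these, 43 encode proteins of the large subunit and 30 proteins of the small subunit. The other 14 are paralogues, retrogene-type or related entries that match the symbol, such as Rpl3l, Rpl7l1, Rps27l and Rps19bp1. No measured value was used to choose them.

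In calling cards a piggyBac-type transposase, alone or fused to a transcription factor, pastes a marked transposon into TTAA sites close to its position on the DNA, and the site is read later from RNA or DNA. The series holds 46 animals in 11 groups and 1 table of the N2a mouse neuroblastoma line, combined by the submitters from 194 GEO samples into 47 tables. The comparisons here rest on the following. Syn1Cre mice (6 animals) carry Cre under a neuronal synapsin promoter. Syn1Cre mice labelled SP1, after the zinc-finger factor that binds GC boxes, were taken at P28 (4 animals) or P10 (3 animals), read as postnatal day 28 and 10. C57bl6J mice (2 animals) received Cre-independent viruses. All animals were injected with AAV at P0-1. In the RNA-read groups each cortex was cut into 10 pieces whose RNA was read apart, whereas BrokenHeart was read from DNA. Neither the SP1 construct nor the transposase given to N2a cells is described in the labels, nor is the age of the Syn1Cre and C57bl6J animals. The remaining groups are Syn1CreNeg, GFAPCre and GFAPCreNeg (6 animals each), Rbp4Cre_TRAP (4), and BrokenHeart, Frontflip_GFAPCre and Frontflip_GFAPCreNeg (3 each).

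Ribosomal proteins assemble with ribosomal RNA into the large 60S subunit, which forms peptide bonds, and the small 40S subunit, which reads the mRNA. Their genes are transcribed in nearly every cell from short, usually TATA-less promoters that are open in chromatin. Transcription typically starts at a C within a run of pyrimidines, and GC boxes and sites for ETS factors and YY1 are known promoter elements of the family. Neurons depend on a steady supply of these proteins for growth and for synthesis in dendrites and axons.

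An insertion was assigned to a gene when it lay within 1 kb of either end of the gene, and was counted again in a 5 kb window. Levels are insertions per 1000000 insertions of the same table (IPM). The depth was 443117 to 1364850 insertions per animal in Syn1Cre, 108945 to 577463 in SP1 P28, 86829 to 95309 in SP1 P10, 1545750 and 2186559 in C57bl6J, and 805993 in N2a. Another gene end lay within 1 kb of 31 members, so their insertions may belong to either gene, and 56 members stood alone. Only Rpl39l had no insertion in any table. No sequencing pool held animals of both SP1 and Syn1Cre, which means that the pool cannot be told apart from the group. In these bulk libraries, fewer cells with insertions and fewer insertions per cell cannot be told apart either.

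Promoter sequence was at hand from RefSeq (GRCm38.p6) for 67 of the 87 members. The stretches below run from 250 bases before to 10 bases after the annotated start and are printed 5′ to 3′ on the strand of the gene. Capitals mark every TTAA, the target sequence of piggyBac, and every GC box core, GGGCGG or its reverse complement CCGCCC. Rpl41 (chr10:128549159-128549418, minus strand) and Rpl31 (chr1:39367601-39367860, plus strand) are shown because their insertion levels differed most clearly between SP1 and Syn1Cre animals. Rpl23 (chr11:97782430-97782689, minus strand), Rps9 (chr7:3703791-3704050, plus strand) and Rpl24 (chr16:55966025-55966284, plus strand) are shown as promoters that were already well hit in Syn1Cre.
Rpl41: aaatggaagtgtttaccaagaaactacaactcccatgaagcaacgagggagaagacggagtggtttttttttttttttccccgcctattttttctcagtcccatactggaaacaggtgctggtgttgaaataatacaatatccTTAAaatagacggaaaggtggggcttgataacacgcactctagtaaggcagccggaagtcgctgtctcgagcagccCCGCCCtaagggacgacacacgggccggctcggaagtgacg
Rpl31: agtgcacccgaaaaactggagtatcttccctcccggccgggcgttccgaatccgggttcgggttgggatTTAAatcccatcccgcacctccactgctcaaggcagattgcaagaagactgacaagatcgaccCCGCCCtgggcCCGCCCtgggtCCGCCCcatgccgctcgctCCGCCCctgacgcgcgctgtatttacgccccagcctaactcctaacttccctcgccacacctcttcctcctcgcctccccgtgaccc
Rpl23: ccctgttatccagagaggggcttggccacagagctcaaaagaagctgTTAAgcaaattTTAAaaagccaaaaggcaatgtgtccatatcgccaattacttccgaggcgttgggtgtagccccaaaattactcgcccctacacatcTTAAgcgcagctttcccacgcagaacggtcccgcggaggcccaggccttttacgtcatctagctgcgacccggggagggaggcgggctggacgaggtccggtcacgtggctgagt
Rps9: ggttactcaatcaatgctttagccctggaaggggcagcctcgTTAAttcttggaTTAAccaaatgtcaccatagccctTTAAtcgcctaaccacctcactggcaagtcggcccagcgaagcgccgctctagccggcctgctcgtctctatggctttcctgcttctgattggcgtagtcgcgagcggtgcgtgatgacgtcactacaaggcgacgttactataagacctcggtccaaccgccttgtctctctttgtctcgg
Rpl24: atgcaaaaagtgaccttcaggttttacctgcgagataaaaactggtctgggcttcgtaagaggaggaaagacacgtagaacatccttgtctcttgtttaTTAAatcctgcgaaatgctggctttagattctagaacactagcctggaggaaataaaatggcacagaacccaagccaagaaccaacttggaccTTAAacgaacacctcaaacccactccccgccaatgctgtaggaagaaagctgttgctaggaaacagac
Rpl41 held 1 TTAA in this stretch, 107 bases before the start, and 1 GC box core 31 bases before it. Rpl31 held 1 TTAA at 181 bases before the start, followed by 4 GC box cores at 118, 107, 96 and 77 bases before it. No GC box core lay in the printed stretches of Rpl23, Rps9 and Rpl24, which held 3, 3 and 2 TTAA. The longer promoter entry of Rpl23 held 1 core outside the printed stretch. Those of Rps25, Rpl39 and Rpl3l, which were higher in SP1 at both ages, held 0. A core lay in 15 of 23 such entries of members called higher at P28, and in 16 of 29 tested and not called. The printed promoters thus do not stand for the family. A match of letters is not evidence that a factor binds, and the absence of a match says only that these letters are not in the window searched.

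Insertions near ribosomal protein genes made up a larger part of all insertions in SP1 animals than in Syn1Cre animals, and a slightly smaller part of the insertions within 1 kb of gene ends. Summed over the 87 genes, the level in the 6 Syn1Cre animals ran from 425.69 to 615.18 IPM (mean 534 ± 66.3, SD). The 4 SP1 P28 animals had 1203, 1331, 1349 and 1027, and the 3 SP1 P10 animals had 1175, 1393 and 1374. No SP1 animal overlapped the Syn1Cre range, and the ratio of means was 2.30 at P28 and 2.46 at P10. Depth differed between the groups. In Syn1CreNeg, without an SP1 label, the shallower animals 1 to 3 (97498 to 119025 insertions) had 763, 636 and 689 IPM. Its deeper animals 4 to 6 (417800 to 556082 insertions) had 611, 565 and 576. Among P28 animals the deepest had the lowest sum, among P10 animals the shallowest. The part of depth in these ratios was not tested. Insertions near the ends of any protein-coding gene made up 7.68% ± 0.44 of all insertions in Syn1Cre, 19.8% ± 2.48 at P28 and 22.8% ± 1.10 at P10. As a share of those gene-end insertions, the ribosomal protein genes took 0.694% ± 0.058 in Syn1Cre, 0.620% ± 0.020 in SP1 P28 and 0.574% ± 0.026 in SP1 P10. On that scale the direction turned, with ratios of 0.894 and 0.828. The P28 animals (0.594% to 0.643%) overlapped the Syn1Cre animals (0.607% to 0.765%), whereas the P10 animals (0.544% to 0.594%) lay below them. In the 5 kb window the direction did not turn, with shares of 0.521% in Syn1Cre, 0.533% at P28 and 0.530% at P10. The ratios there were 1.02 and 1.02. No test was made of these sums.

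**Figure D1:**
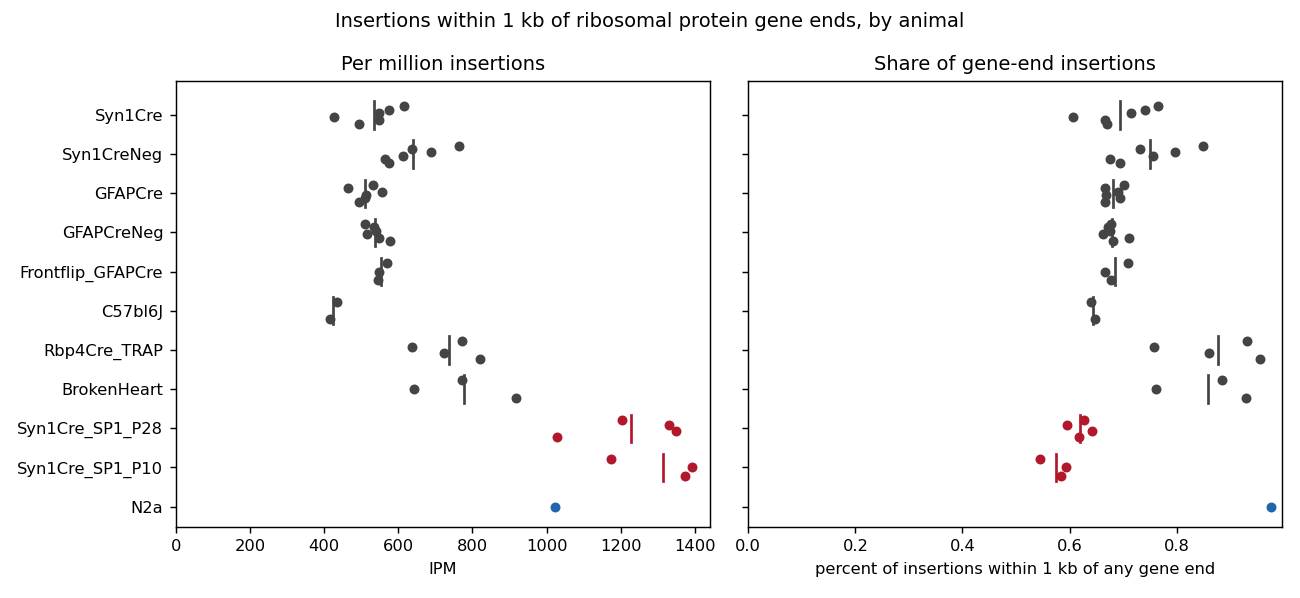
Summed insertions within 1 kb of the 87 ribosomal protein genes, in IPM (left) and as a percent of the insertions near any gene end (right). Each point is 1 animal or the N2a table and bars are group means; Frontflip_GFAPCreNeg, with 2341 to 9600 insertions per animal, is left out. The 7 SP1 animals lie above all Syn1Cre animals on the left and between 0.544% and 0.643% on the right.

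The label check used insertions in and within 10 kb of marker genes. All 10 neuron markers had insertions in Syn1Cre and in both SP1 groups, with summed levels of 1558 to 1800 IPM in Syn1Cre, 1793 to 2139 in SP1 P28 and 1571 to 1868 in SP1 P10. The 10 astrocyte markers, all hit in these groups, had 621.82 to 2036, 1049 to 2297 and 965 to 1214 IPM. Their mean was thus 1.89 times the Syn1Cre mean at P28 and 1.13 times at P10. Oligodendrocyte markers (6 of 6 hit) ran from 201 to 262, 196 to 267 and 178 to 265 IPM. Microglia and endothelium markers (6, 6 and 3 of 6 hit) ran from 67.7 to 94.3, 72.9 to 83.1 and 33.4 to 80.6 IPM, with Cldn5, Csf1r and Cx3cr1 at 0 in SP1 P10. The part of these markers in the ribosomal protein results was not tested.

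At P28, 26 of the 69 ribosomal protein genes tested had more insertions in SP1 than in Syn1Cre animals and none had fewer (edgeR quasi-likelihood test, Benjamini-Hochberg over all genes tested, adjusted p under 0.05). Over all 11683 genes tested, 41.5% were higher and 1.49% lower, so the share of 37.7% in the family was close to the background. The median log2 difference was 0.69 over the family and 0.92 over all genes tested. The large subunit gave 12 of 38 genes higher (median 0.65), the small subunit 12 of 25 (median 0.73) and the paralogues 2 of 6 (median 0.24). Of the genes that stood alone, 15 of 42 were higher, and of those with a neighbouring gene end 11 of 27. The 18 untested members had fewer than 10 insertions over the 10 animals, and 11 members had none in any SP1 P28 animal, a level under 2.77 IPM. A log2 ratio of counts pooled within each group, with a group without insertions set to 3 counts, gave medians of 0.66 and 0.95. This is another estimate than the edgeR difference, so the change is not the effect of the bound alone.

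At P10, 15 of 64 genes tested were higher and 1, Rpl34, was lower, by the same test. Over all 10850 genes tested, 27.8% were higher and 0.664% lower. The medians were 0.62 in the family and 0.83 over all genes. The large subunit gave 7 of 35 higher, the small subunit 6 of 23 and the paralogues 2 of 6. The depth was low: 32 members had no insertion in any P10 animal, which allows up to 11.03 IPM, a level that none of them exceeded in Syn1Cre. The pooled log2 ratio with such genes at their bound gave medians of 1.33 and 1.48, which reflect that floor and the change of estimate. Both ages were set against the same 6 Syn1Cre animals. Of the members, 14 were higher at both ages and 12 at P28 only. How many of all genes were higher at both ages was not counted. The direct test between the ages called none of the members.

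The count depends on the scale. Scaling by TMM moved the median of all genes tested from 0.92 to -0.39 at P28 and from 0.83 to -1.12 at P10. TMM thus did not centre the genes tested, and at P10 the median ended farther from no difference. On that scale 9 members were higher and 19 lower at P28, against 15.9% and 20.5% of all genes. At P10, 6 were higher and 22 lower, against 10.0% and 24.1%. The members higher under the total, under TMM and under DESeq2 at both ages were Rpl31, Rpl3l, Rpl41, Rps23 and Rps25. Rpl23 and Rps9 at P28, and Rpl23 at P10, were higher by IPM and lower by TMM.

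**Figure D2:**
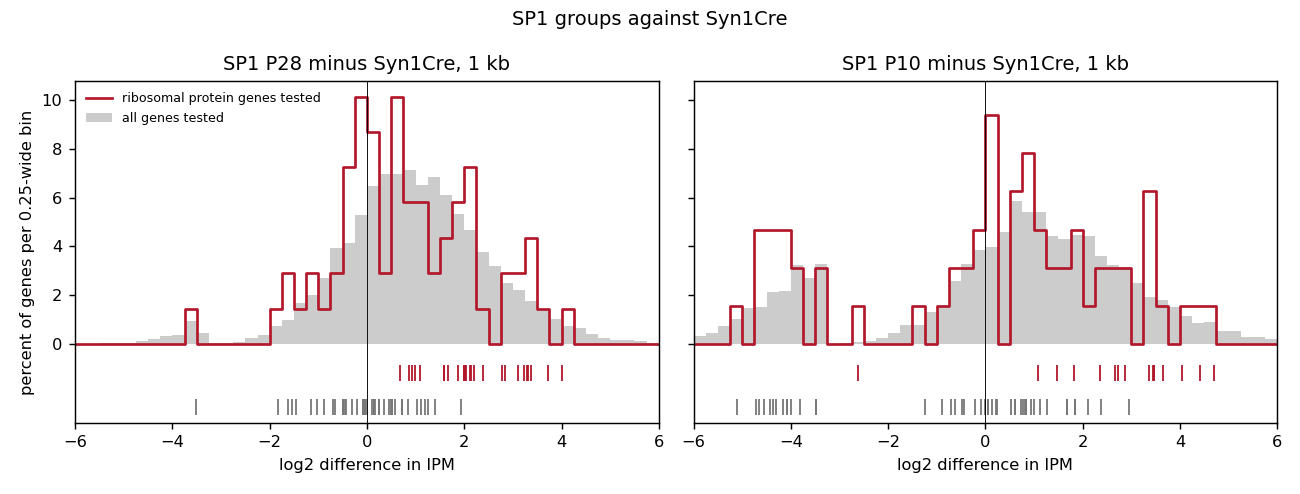
Distribution of log2 differences in insertions within 1 kb, SP1 P28 (left) and SP1 P10 (right) minus Syn1Cre, as percent of genes per bin. Grey bars are all genes tested, the red line is the ribosomal protein genes, and ticks are single members, red where the test was passed. The members spread over the same range as other genes, with medians of 0.69 and 0.62; values far to the left are mostly genes with no insertion in the SP1 animals and are no measure of size.

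Among large subunit genes the highest differences that held on every scale were at Rpl41 and Rpl31. Rpl41 (chr10:128548110-128549168), which encodes a very short basic protein of the large subunit, had 2.66 to 12.5 IPM in Syn1Cre (median 7.54). The SP1 P28 animals had 77.6, 129, 91.1 and 58.9, and the SP1 P10 animals 219, 100.3 and 199. C57bl6J animals had 12.9 and 13.3. All SP1 animals lay above all Syn1Cre and C57bl6J animals, and the log2 difference was 3.31 ± 0.30 (SE, edgeR adjusted p = 1.6e-26) at P28 and 4.42 ± 0.35 (edgeR adjusted p = 2.4e-34) at P10. The means stood 11.7 and 22.6 times above Syn1Cre. An end of Zc3h10 lies within 1 kb of Rpl41.

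Rpl31 (chr1:39367851-39371911) encodes a protein near the exit of the tunnel through which the new peptide leaves. Its level was 4.396 to 11.96 IPM in Syn1Cre (median 8.86), against 60.4, 91.8, 103 and 50.2 at P28 and 80.6, 100.3 and 63.0 at P10. The groups did not overlap, and the log2 difference was 3.10 ± 0.31 (edgeR adjusted p = 4.5e-22) at P28 and 3.36 ± 0.46 (edgeR adjusted p = 4.4e-12) at P10. An end of Tbc1d8 lies within 1 kb of Rpl31. Rpl39 (chrX:37082518-37085222), a small protein that lines the same tunnel, was already among the most hit members in Syn1Cre, with 12.5 to 23.9 IPM. It had 47.4, 119, 54.7 and 45.0 at P28 and 92.1, 78.0 and 136 at P10. Every SP1 animal was above the Syn1Cre range, by a log2 difference of 1.87 ± 0.30 (edgeR adjusted p = 2.6e-09) and 2.73 ± 0.38 (edgeR adjusted p = 1.9e-11).

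Rpl15 and Rpl21, further proteins of the large subunit, were also higher at both ages. Rpl15 had 2.24 to 6.77 IPM in Syn1Cre, 30.2, 9.18, 30.4 and 19.05 at P28, and 34.6, 11.1 and 20.98 at P10. Its log2 difference was 2.38 at P28 and 2.37 at P10, and an end of Nkiras1 lies within 1 kb of it. Rpl21 had 11.2 to 20.3 in Syn1Cre, 34.5, 119, 54.7 and 36.4 at P28, and 69.1, 44.6 and 52.5 at P10. For both genes every SP1 animal lay above the Syn1Cre range. For Rpl15, P28 animal 2 and P10 animal 2 did so with 1 insertion each. Rpl29 passed at P28 only, with a log2 difference of 2.11 ± 0.48 (edgeR adjusted p = 4.3e-05), and its P10 animals had 0, 22.3 and 31.5 IPM.

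Small subunit genes showed differences of similar size. Rps23 (chr13:90923122-90924732), whose product sits at the decoding centre, had 2.26 to 7.16 IPM in Syn1Cre (median 5.64). The P28 animals had 64.7, 55.1, 54.7 and 52.0, and the P10 animals 23.03, 100.3 and 63.0. None overlapped with Syn1Cre, and the log2 difference was 3.29 ± 0.33 (edgeR adjusted p = 1.7e-21) at P28 and 3.45 ± 0.53 (edgeR adjusted p = 1.1e-09) at P10. Rps16 (chr7:28350689-28352698), whose tail reaches toward the tRNA in the P site, had 0 to 4.51 in Syn1Cre (median 1.84), 43.1, 27.5, 36.5 and 24.2 at P28, and 23.03, 44.6 and 20.98 at P10. These groups did not overlap either. The log2 differences were 3.72 ± 0.46 (edgeR adjusted p = 6.2e-15) and 3.66 ± 0.82 (edgeR adjusted p = 5.3e-05).

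Rps25 (chr9:44407714-44410406), which is needed for initiation at several viral internal ribosome entry sites, had 2.26 to 5.96 IPM in Syn1Cre. It had 38.8, 27.5, 48.6 and 29.4 at P28 and 46.1, 66.8 and 52.5 at P10. The SP1 animals were all higher, by a log2 difference of 2.78 ± 0.38 (edgeR adjusted p = 4.9e-12) and 3.46 ± 0.57 (edgeR adjusted p = 1.3e-08). Ccdc84 and Trappc4 have ends within 1 kb of it. Rps15a had 2.26 to 7.16 in Syn1Cre, and 17.3, 9.18, 42.5 and 17.3 at P28, the 9.18 being 1 insertion. At P10 it had 34.6, 55.7 and 20.98, and all its SP1 animals lay above the Syn1Cre range. Its log2 difference was 2.03 ± 0.45 and 2.88 ± 0.66. Rps21, with a neighbouring end of Cables2, passed at P28 only (2.20 ± 0.42, edgeR adjusted p = 1.2e-06), and 1 of its P28 animals had no insertion.

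**Figure D3:**
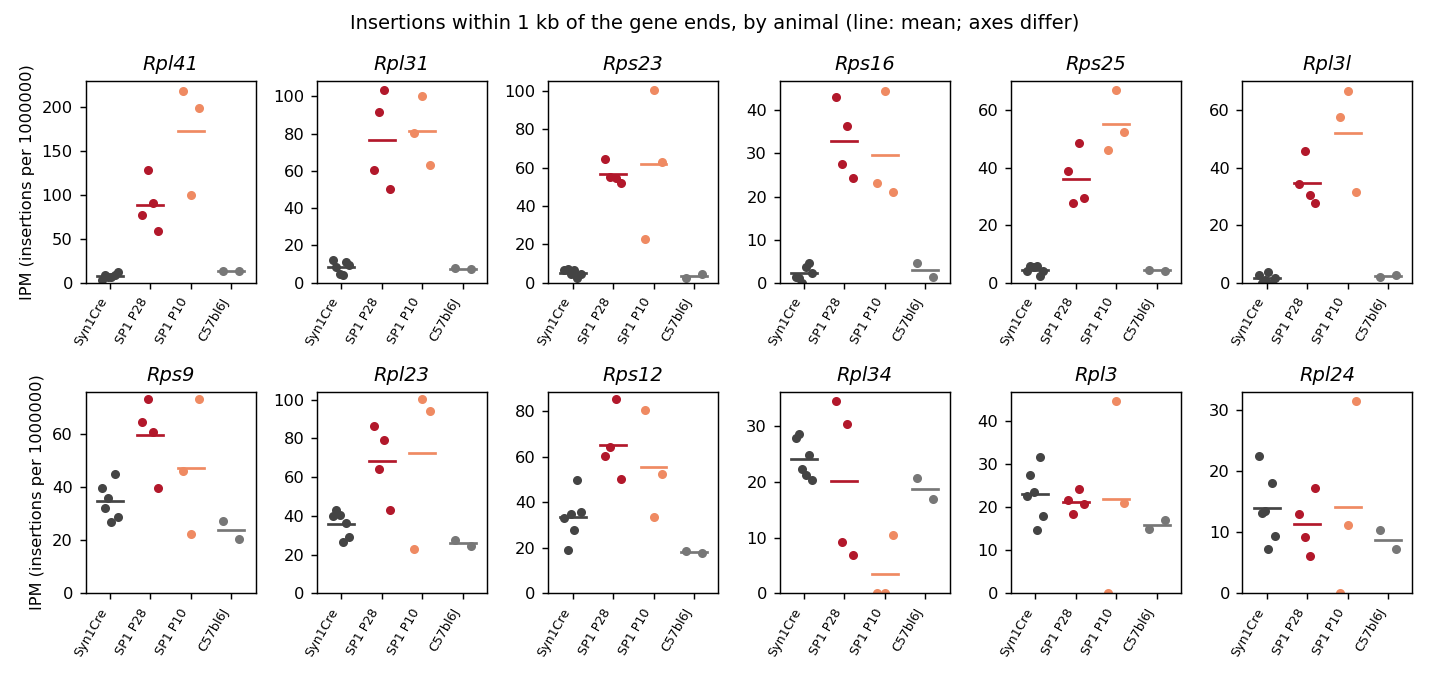
Insertion levels (IPM) within 1 kb of 12 ribosomal protein genes. Each point is 1 animal of Syn1Cre, SP1 P28, SP1 P10 or C57bl6J, and the line is the group mean. The upper 6 genes separate all SP1 animals from the Syn1Cre and C57bl6J animals, whereas Rps9, Rpl23, Rps12, Rpl34, Rpl3 and Rpl24 have overlapping groups or small gaps.

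Several further members with small counts were singled out after their values were seen. Rps18 and Rps19, both in the head of the small subunit, had 0 to 3.58 and 0 to 5.31 IPM in Syn1Cre. At P28, Rps18 had 21.6, 0, 12.2 and 19.05 (log2 difference 3.22 ± 0.58) and Rps19, a gene mutated in Diamond-Blackfan anaemia, had 12.9, 18.4, 42.5 and 17.3 (2.83 ± 0.50). Rps18 overlapped through the animal at 0, whereas Rps19 did not overlap. All SP1 insertions near Rps18, 18 at P28 and 8 at P10, lay on the side away from its start, where ends of B3galt4 or Vps52 also lie within 1 kb. Rpl18, which also has a neighbour, rested on 10 insertions on its start side at P28 and had a log2 difference of 3.38 ± 0.79 (edgeR adjusted p = 8.7e-05).

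The paralogue Rpl3l, like Rps18, had all its SP1 insertions on the side away from its start. It replaces Rpl3 in ribosomes of heart and skeletal muscle. Its window had 0 to 3.66 IPM in Syn1Cre, 34.5, 45.9, 30.4 and 27.7 at P28, and 57.6, 66.8 and 31.5 at P10. The groups did not overlap, with log2 differences of 4.00 ± 0.47 (edgeR adjusted p = 1.8e-16) and 4.70 ± 0.68 (edgeR adjusted p = 8.1e-11). None of its 48 SP1 insertions was on the side of its start: 34 at P28 and 14 at P10 were around its far end, and 27 of the 48 were at 1 TTAA at chr17:24736402-24736405. An end of Msrb1, a methionine sulfoxide reductase, lies within 1 kb there, so these insertions cannot be assigned to Rpl3l. Rps27l, a p53-responsive paralogue of Rps27, had 12.5 to 15.9 in Syn1Cre, 56.1, 18.4, 66.8 and 36.4 at P28, and 57.6, 44.6 and 20.98 at P10. All its SP1 animals were above that range (log2 differences 1.59 ± 0.31 and 1.46 ± 0.53).

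Of the 8 members most hit in Syn1Cre, Rpl39 is given above and Rpl34 below, and the other 6 had log2 differences under 1 at P28. Rpl23 (chr11:97777526-97782439), a protein at the subunit interface that also binds Mdm2, had 26.4 to 42.9 IPM in Syn1Cre (median 38.0), 86.3, 64.3, 79.0 and 43.3 at P28, and 23.03, 100.3 and 94.4 at P10. The P10 animals overlapped Syn1Cre. The log2 difference was 0.86 ± 0.27 (edgeR adjusted p = 0.005) and 1.08 ± 0.39 (edgeR adjusted p = 0.022), but -0.54 and -0.92 by TMM. Rps9 had 27.1 to 45.1 in Syn1Cre, 64.7, 73.4, 60.8 and 39.8 at P28, and 46.1, 22.3 and 73.4 at P10. The groups overlapped, with a log2 difference of 0.69 ± 0.28 (edgeR adjusted p = 0.036) at P28, -0.69 by TMM, and 0.52 ± 0.45 (edgeR adjusted p = 0.44) at P10.

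Rps12 had 19.1 to 49.6 IPM in Syn1Cre, 60.4, 64.3, 85.1 and 50.2 at P28, and 80.6, 33.4 and 52.5 at P10. All 4 P28 animals and 2 of the 3 P10 animals exceeded the Syn1Cre range, with a log2 difference of 0.92 ± 0.27 (edgeR adjusted p = 0.0027, -0.46 by TMM) and 0.78 ± 0.43 (edgeR adjusted p = 0.19). Rps26, near the mRNA exit of the small subunit, had 20.5 to 40.6 in Syn1Cre, 34.5, 36.7, 54.7 and 31.2 at P28, and 11.5, 0 and 20.98 at P10. Neither age passed (0.45 and -1.25). Rpl3, which helps shape the peptidyl transferase centre, had 14.7 to 31.6 in Syn1Cre, 21.6, 18.4, 24.3 and 20.8 at P28, and 0, 44.6 and 20.98 at P10. All P28 animals lay inside the Syn1Cre range, with log2 differences of -0.03 ± 0.36 (edgeR adjusted p = 0.97) and 0.05. Rpl7l1, a paralogue of Rpl7 that acts in large subunit maturation, gave -0.03 and -0.22.

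The lowest differences at P28 among members with at least the median count were at Rps6, Rps20, Rpl34, Rpl5 and Rpl7l1, between -0.65 and -0.03, and none passed. Rps6, the substrate of the S6 kinases, had 4.40 to 11.2 IPM in Syn1Cre and 0, 9.18, 6.08 and 5.195 at P28. Rpl34, a large subunit protein, had 20.3 to 28.6 in Syn1Cre, 34.5, 9.18, 30.4 and 6.93 at P28, and 0, 0 and 10.5 at P10. Its P28 animals spread to both sides of the Syn1Cre range (-0.46 ± 0.38), and its P10 animals were all below it (-2.62 ± 1.01, edgeR adjusted p = 0.036). That call rests on 1 P10 insertion against 131 in Syn1Cre, a ratio of 0.156 with a 95% counting interval of 0.00393 to 0.887. It was lost without P10 animal 1 or animal 2. The other lowest members at P10 were Rps29, which had no insertion in the P10 animals, and Rps26, Rpl22l1 and Rpl26, none of which passed.

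The wider 5 kb window held 84 testable members at P28, of which 25 were higher and 3 lower, against 32.1% and 2.99% of all 16847 genes tested. The medians were 0.41 in the family and 0.44 over all genes. The lower members were Rps6 (-1.66 ± 0.52, edgeR adjusted p = 0.0065), Rps10 (-1.10 ± 0.31, edgeR adjusted p = 0.0024) and Rps14 (-1.12 ± 0.32, edgeR adjusted p = 0.0027). At P10, 15 of 83 members were higher and 2 lower, Rpl34 (-2.94 ± 0.95) and Rps14 (-2.52 ± 0.74), against 21.8% and 1.97% of 16549 genes. At P28, 22 members were higher in both windows, and at P10 12. The share of all genes higher in both windows was not counted. The summed ratio over Syn1Cre fell with the window, to 1.80 at P28 and 1.94 at P10.

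The difference between SP1 and Syn1Cre lay mainly on the side of the gene start. Over the 67 members of known strand, the side of the window nearer to the start held 81.7% ± 2.88 of insertions in Syn1Cre, 89.6% ± 4.00 in SP1 P28 and 88.4% ± 1.67 in SP1 P10. Over all genes of known strand, the start side held 67.8%, 84.0% and 85.7%. The start-side level was 342 ± 37.3 IPM in Syn1Cre, 940 ± 158 at P28 and 1013 ± 80.1 at P10, or 2.75 and 2.96 times the Syn1Cre mean. The other side had 77.0, 105 and 133 IPM, or 1.36 and 1.72 times. With only start-side insertions counted, 22 of 44 members were higher and 1 lower (Rpl32l) at P28, against 55.8% and 0.909% of 7703 genes. At P10 it was 10 higher and 1 lower (Rpl34) of 38, against 37.7% and 0.449% of 6908 genes.

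The insertions gathered just upstream of the annotated start and were sparse in the first bases of the gene. In Syn1Cre the 500 bases upstream held 184 ± 26.4 IPM and the 500 bases downstream 12.1 ± 4.75. The same stretches held 613 ± 159 and 40.7 ± 4.05 in SP1 P28, and 642 ± 63.7 and 58.4 ± 32.2 in SP1 P10. All SP1 animals exceeded all Syn1Cre animals upstream, where the SP1 P28 values ran from 386 to 725 and the highest Syn1Cre value was 221. From 5000 to 1000 bases upstream the groups were closer, with 192 ± 22.4, 235 ± 38.2 and 253 ± 49.2. C57bl6J had 138 and N2a 388 in the 500 upstream bases.

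**Figure D4:**
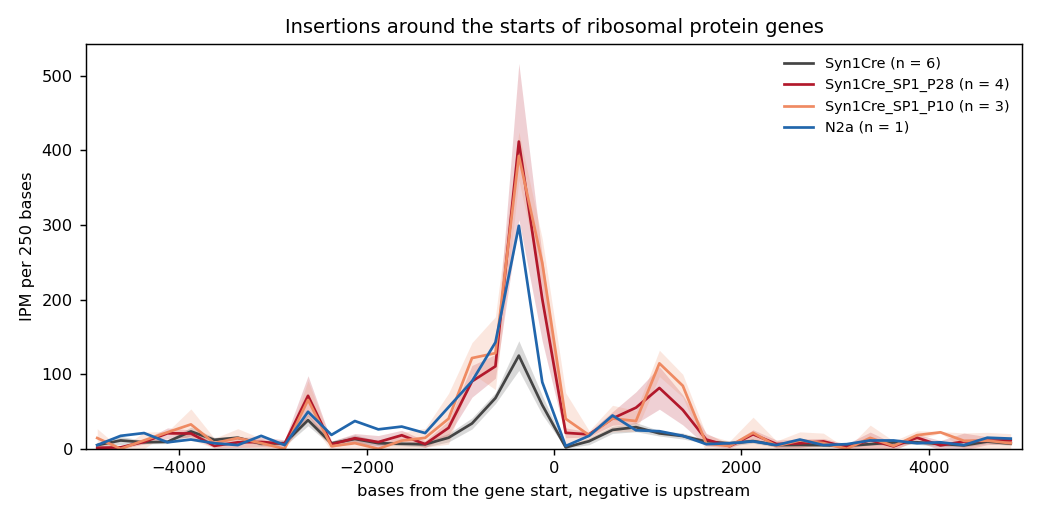
Insertion levels (IPM) in bins of 250 bases around the annotated start of the 67 ribosomal protein genes of known strand, negative positions being upstream. Lines are group means over animals and bands ± 1 SD; N2a is 1 table. The SP1 groups peak in the 500 bases upstream, at 613 and 642 IPM summed, against 184 in Syn1Cre, and all lines drop just after the start.

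Single TTAA held much of the difference. In Rpl41 the TTAA printed above, 107 bases before the start (chr10:128549272-128549275), held 10 insertions over all Syn1Cre animals, 41 in SP1 P28 and 27 in SP1 P10. It was hit in 4 of 4 and 3 of 3 SP1 animals and held 53.1% of the 128 SP1 insertions of the gene. In Rpl31 the TTAA at 181 bases before the start (chr1:39367670-39367673) held 10, 24 and 10 insertions, and another at 276 bases held 10, 25 and 5. These positions were thus hit in animals without SP1 too, at lower frequency. Counts at single sites, here and below, are not scaled for depth. Syn1Cre held 5572442 insertions in all, SP1 P28 1082837, SP1 P10 271903 and C57bl6J 3732309.

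In further members called higher at both ages, the site most hit with SP1 was hit without it to varying degrees. In Rps23 a TTAA at 491 bases before the start (chr13:90922631-90922634) held 2 insertions in Syn1Cre, 26 in SP1 P28 and 5 in SP1 P10. In Rps16 a TTAA at 472 bases (chr7:28350217-28350220) held 4, 24 and 8, and so 32 of the 41 SP1 insertions near this gene. It was also the site most hit in Syn1Cre, with 4 of 12 insertions, and held 9 in C57bl6J. In Rps15a a TTAA at 377 bases (chr7:118116521-118116524) held 0, 12 and 4, although C57bl6J had 5 there. All 27 Syn1Cre insertions near Rps15a were on the side away from its start, whereas 20 of 22 at P28 and 9 of 10 at P10 were on the start side. In Rps25 the TTAA at 933 bases held 3, 13 and 8, and in Rpl15 the one at 448 bases held 7, 14 and 4. The Rpl15 site was the most hit one in Syn1Cre as well.

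Within the printed stretches of Rpl23, Rps9 and Rpl24, the TTAA most hit in Syn1Cre was hit in both SP1 groups, C57bl6J and N2a. Some of the other printed TTAA were not. The Rpl23 site most hit in Syn1Cre lay outside its printed stretch, 669 bases before the start, with 44 insertions. The counts that follow are not scaled for depth, and Syn1Cre held 5572442 insertions in all against 1082837 in SP1 P28. In Rpl23 the sites at 203, 192 and 105 bases before the start held 7, 18 and 36 insertions in Syn1Cre, and 6, 12 and 23 in SP1 P28. In Rps9 those at 208, 196 and 172 bases before the start of the promoter entry held 8, 14 and 61 in Syn1Cre, and 1, 5 and 26 in SP1 P28. In Rpl24, a large subunit gene whose deletion underlies the Belly spot and tail mouse, the sites at 151 and 58 bases held 9 and 36 in Syn1Cre, and 0 and 9 in SP1 P28. Rpl24 was chosen after its values were seen. It had 7.33 to 22.6 IPM in Syn1Cre, 12.9, 9.18, 6.08 and 17.3 at P28, and 0, 11.1 and 31.5 at P10, with overlapping groups and log2 differences of 0.10 and 0.22.

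Motifs were counted on both strands in the 300 bases of each RefSeq promoter. GGGCGG was present in 55.2% of 67 member promoters and 46.9% of all 17274 promoters. It was present in 65.2% of the 23 members called higher at P28 and in 55.2% of the 29 tested and not called. The ETS-type CCGGAAGT was in 16.4% of members against 5.34% of all promoters, and AAGATGGC, a YY1-type motif, in 8.96% against 3.23%. CCGGAAGT was in 26.1% of called and 13.8% of uncalled members, AAGATGGC in 4.35% and 17.2%. TATAAA, in 11.9% against 13.4%, and TTAA, in 46.3% against 48.7%, were about as common as elsewhere. CTTT within 10 bases of the start was in 26.9% against 8.29%, and 34.3% of member starts were a C, against 13.9%. None of these motifs contains another, overlapping matches were all kept, and the shares were not tested.

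The 2 SP1 ages did not differ at any of the 40 ribosomal protein genes tested (edgeR, Benjamini-Hochberg), while 3 had an unadjusted p under 0.05. TMM and DESeq2 called 0 of them as well, and TMM gave 4 at an unadjusted p under 0.05. Over all 6912 genes tested 0.0289% were called, in either direction. Rpl41 was lower at P28 by a log2 difference of -1.08 ± 0.36 that did not pass (edgeR adjusted p = 0.18). The P10 animals had fewer insertions, and a missed threshold does not show that the ages were alike.

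C57bl6J animals, which received viruses that need no Cre, had slightly lower levels than Syn1Cre. Their sums were 434 and 415 IPM, a ratio of 0.795, and the lower of them lay below the Syn1Cre range. None of the 74 ribosomal protein genes tested was called by edgeR, TMM or DESeq2, while 9 had an unadjusted p under 0.05 in edgeR. Over all 12359 genes tested 0.178% were called. The median log2 difference was -0.21 in the family and -0.19 over all genes.

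In N2a cells ribosomal protein genes took a larger part of insertions than in C57bl6J cortex on either scale. The sum was 1022 IPM, 2.41 times C57bl6J, and 0.976% of gene-end insertions against 0.644%. N2a is 1 combined table, so there is no test; intervals are 95% Poisson intervals and cover counting error only. With a total of at least 10 insertions over the 3 tables, 19 of 59 members had an N2a interval wholly above both C57bl6J animals, and 2 wholly below. Over all 9647 genes of such depth, 27.7% lay above and 8.05% below.

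The order of the members in N2a differed from that in C57bl6J cortex. Rpl3 was highest with 106.70 IPM (85.3 to 132), 6.71 times its C57bl6J mean. Rps12 followed with 99.3 (78.7 to 124) and Rps9 with 94.3 (74.3 to 118), and the intervals of these 3 overlap. Rps26 (54.6), Rpl5 (50.9), which binds the 5S RNA with Rpl11, Rpl13a (47.2), Rpl23 (40.9) and Rpl7l1 (36.0) came next. Rpl5 stood 7.68 times and Rpl23 1.57 times above C57bl6J. An end of Dipk1a lies within 1 kb of Rpl5. Rpl31 and Rpl21 went the other way, with 1.24 (0.03 to 6.91) and 2.48 (0.30 to 8.96) IPM, 0.16 and 0.17 times the C57bl6J means. Neither printed nor neighbouring TTAA of Rpl31 at 181 and 276 bases was hit in N2a.

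**Figure D5:**
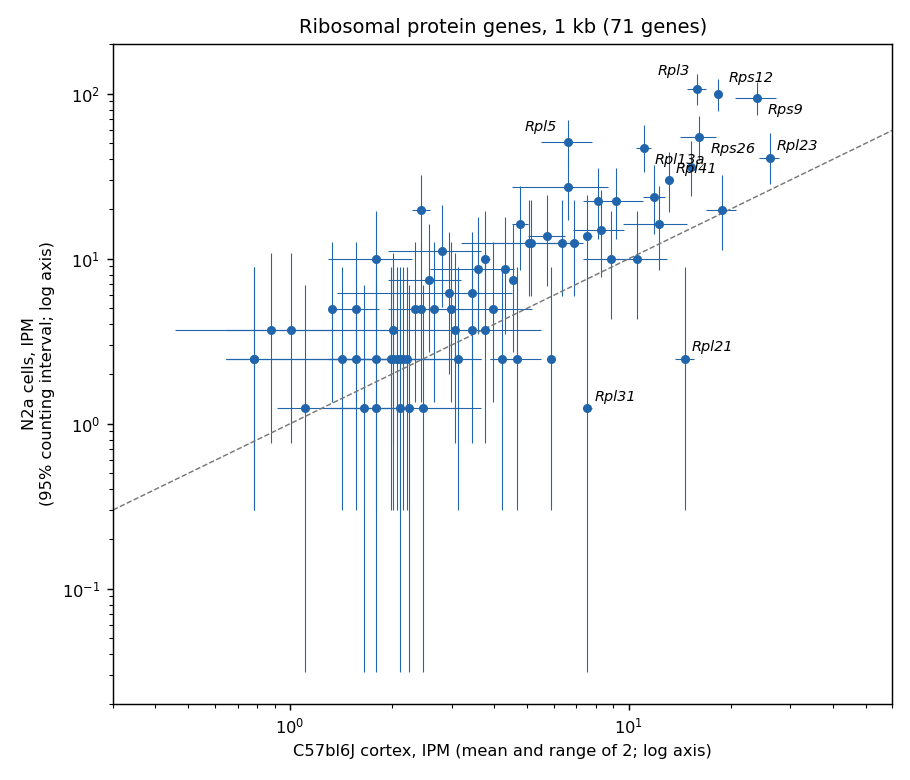
Insertion levels (IPM) within 1 kb of the 71 ribosomal protein genes with insertions in both, in N2a cells (vertical, 95% counting interval) against C57bl6J cortex (horizontal, mean and range of 2 animals), both on log axes. The dashed line marks equal levels. Of the genes shown, 58 lie above it, Rpl3 is highest in N2a, and Rpl31 and Rpl21 lie far below. The 11 members without an N2a insertion are not shown. The share of insertions within 1 kb of any gene end was itself 1.59 times as high in N2a. How many of all genes lie above such a line was not counted.

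Marker levels in N2a differed from cortex: neuron markers had 645 IPM, astrocyte markers 132 with Aqp4 at 0, and microglia and endothelium markers 257, against C57bl6J means of 1460, 541 and 91.8. Their part in the N2a values was not tested.

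Other gene lists of the translation apparatus, chosen by function, gave shares on both sides of the 41.5% (P28) and 27.8% (P10) of all genes called higher, and the lists were not compared by a test. At P28, 2 of 3 testable ribosomal protein genes outside the symbol rule (such as Rplp0 and Rpsa) were higher, and 7 of 16 translation factors (median 1.43). Ribosome biogenesis genes gave 3 of 14 (median 0.78) and mitochondrial ribosomal protein genes 16 of 59 (median 0.80), with none lower in any of these lists. At P10 the counts were 1 of 3, 5 of 12, 1 of 13 and 8 of 55.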

How the data were processed

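Each deposited table lists 1 insertion per line, with its position and its raw read count as deposited, judged from whole numbers that sum to different totals. Per the submitters' processing notes, the build was mm10 (GRCm38) and Novoalign and Bowtie2 were used; their roles, the filters and the transposon caller are not given in the sources used here. The series' design text, in the labels, says that the barcodes of a replicate were pooled into 1 table, so the animal was the replicate; p-values measure the spread between animals. At the recorded SRT positions checked against RefSeq promoter sequence, 122946 of 122946 were TTAA, and 2480 of 2554 (97.1%) in BrokenHeart.

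From the tables, insertions (lines, not reads) were counted within 1 kb and 5 kb of either end of every protein-coding RefSeq gene and compared by the quasi-likelihood F-test (edgeR 4.0.16, R 4.3.3). Library size was the insertions on chromosomes 1 to 19 and X, without further scaling. Genes with a total of at least 10 insertions over the animals compared were tested, with Benjamini-Hochberg adjustment over all of them and a threshold of 0.05. TMM, DESeq2 1.42.0, totals of at least 1 or 30, distinct positions, the start side alone and animals left out were alternatives. Each model was tested on simulated data. Strand, and so the start side, was known for genes in the promoter table. A bound for a group with 0 insertions is 3 counts over the group. Intervals are 95% exact Poisson intervals; intervals and bounds cover counting error only. Medians of the log2 differences, and the sums, carry no test.

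Members named with values were, for each SP1 comparison, the 10 highest called and the 5 lowest tested with a count at or above the members' median, and the 8 most hit in Syn1Cre and in N2a; others are said to have been chosen later. The members and the other gene lists were chosen with earlier results of these data known. Replicate numbers are shared between groups, but same-numbered animals did not deviate together (correlations of -0.032 to 0.038), so no pairing was used. Some results on single members are not reported here.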

Additional observations from a re-analysis of the deposited data

Results flagged for a closer look

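Among 78 groups of values tested for a sample far from the rest (by the gap to its neighbour over the range), 1 stood out; chance alone marks about 1 in 20. It was Rpl39 in SP1 P28 animal 2, at 119.3 insertions per 1000000 (IPM) against 45.02 to 54.69 in the other P28 animals. The P10 animals of the same label had 78.0 to 136.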

How the results depend on the processing

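With the other scalings, fewer members were higher and more were lower in SP1. TMM gave 9 higher and 19 lower at P28 and 6 and 22 at P10 (1 kb), and 14 and 11 at P28 and 9 and 13 at P10 (5 kb). DESeq2 gave 7 and 5, 6 and 7, 11 and 7, and 9 and 4 in that order. Neither scaling brought the median of all genes tested to no difference. At 1 kb the medians under TMM and DESeq2 were -0.39 and -0.38 at P28, and -1.12 and -1.07 at P10. A total of at least 30 left 9 higher at P10. The 1 member lower at P10 became 0 with a total of at least 1 and with distinct positions; with distinct positions the lower members in the 5 kb window were 0 at P28 and 1 at P10. On the start side alone, 1 was lower at P28 (1 kb) and 1 at P10 (5 kb). With animals left out one at a time, members higher at 1 kb numbered 21 to 25 at P28 and 12 to 16 at P10, and lower 0 and 0 to 1; at 5 kb they were 21 to 26 and 11 to 16, and lower 2 to 3 and 0 to 2, with 0 at P10 without P10 animal 1 or 2. Against Syn1Cre animals 1 to 3 only, 21 and 13 were higher, and 1 member was lower in C57bl6J. The replicate block gave 24 higher at P28 and 13 higher with 1 lower at P10.

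The summed ratio to Syn1Cre was 1.80 (P28) and 1.94 (P10) at 5 kb and 0.894 and 0.828 with gene-end insertions as the denominator at 1 kb (1.02 and 1.02 at 5 kb); C57bl6J over Syn1Cre was then 0.928. N2a over C57bl6J was 1.95 with distinct positions, 1.96 at 5 kb and 1.52 over gene-end insertions. Signs turned for members near 0. At P28 the log2 difference was 0.22 for Rps6, 0.57 for Rps20, 0.30 for Rpl34 and 0.94 for Rpl7l1 with distinct positions, and 0.25 for Rpl5 and 0.060 for Rpl7l1 on the start side. Leaving out 1 animal gave -0.96 to 0.22 for Rpl34 (above 0 without P28 animal 4) and -0.25 to 0.28 for Rpl7l1, and the replicate block gave 0.021 for Rpl7l1. At P10, TMM and DESeq2 gave -0.19 and -0.12 for Rpl21, -0.55 and -0.47 for Rps27l, and -0.92 and -0.87 for Rpl23, and distinct positions gave 0.40 for Rps26. The cause of these turns was not tested. Depth limits the P10 comparison most, where 32 members had no insertion.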

Other observations

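Some members had different levels among the animals without an SP1 label, in groups that the comparisons above do not use. Rps12, a small subunit gene, had 33.4 ± 10.1 IPM in Syn1Cre (SD, n = 6), 72.6 ± 13.7 in Syn1CreNeg (n = 6), 37.7 ± 7.90 in GFAPCre (n = 6) and 61.4 ± 20.5 in GFAPCreNeg (n = 6). The Syn1Cre animals (19.1 to 49.6) and the Syn1CreNeg animals (53.9 to 92.4) did not overlap. Rps26 had 28.5 ± 8.42, 42.1 ± 5.76, 28.1 ± 5.46 and 37.6 ± 10.0 in the same order, and 87.2 ± 9.08 in Rbp4Cre_TRAP (n = 4). The Rbp4Cre_TRAP value rests on 5, 4, 4 and 2 insertions in animals with 24402 to 57006 insertions, so its counting error is large. Rpl41 and Rpl31 had means of 6.32 to 12.2 IPM in Syn1Cre, Syn1CreNeg, GFAPCre and GFAPCreNeg, the highest being Rpl41 in Syn1CreNeg. No test was made between these groups, and the part of depth, which was lower in some Cre-negative animals, was not tested. The Cre-negative and Cre-positive groups also differed in astrocyte marker levels, with 2140 to 2773 IPM in Syn1CreNeg against 621.82 to 2036 in Syn1Cre.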
